A study of Macaca mulatta with 16 samples.

Results

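Whole medial rectus was compared with whole lateral rectus of adult rhesus macaques, with RNA run on 2 human array types, U133A and U133B. The arrays were chosen by their titles, 2 medial and 2 lateral rectus arrays on each array type, which is 8 of the 16 arrays of the series. The other 8 arrays carry amplified RNA of the orbital and global layers of extraocular muscle and are outside the main comparison. They serve only for the pooled cutoffs on low values, the levels of a few genes and an alternative fit. Both groups are untreated whole muscle RNA processed by the standard protocol without amplification, so they differ, as far as the labels go, only in which muscle was taken. The labels do not say how many animals gave the muscles, whether medial and lateral muscles came from the same animal, or whether a U133A array shares its RNA with a U133B array. With that unknown, each p-value below measures only the spread between these arrays, which may be technical.

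The medial and lateral recti are the antagonists that turn the eye toward and away from the nose, and each has an orbital layer of fibres facing the bony orbit and a global layer facing the eye. Extraocular muscle is known for its dense capillary bed, its small and mitochondria-rich fibres, and a myosin found nearly nowhere else, the extraocular heavy chain MYH13. A whole muscle sample also carries what lies in and around the fibres: blood left in the vessels, resident immune cells, connective tissue, fat, nerve and, near the eye, gland and surface epithelium. Messenger RNA of each of these counts toward the array signal, so lists of their marker genes were read beside the muscle genes.

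All values are scaled intensities on a linear scale, 1 per probe set and array. A difference is the medial mean minus the lateral mean of log2 intensity. It is given with the moderated standard error of the limma model (SE, 2 arrays per group). This SE also draws on the spread of the other probe sets of similar intensity, so it can be larger or smaller than the printed values alone would give. Levels of different probe sets are not set against each other, because human probes bind macaque transcripts to different degrees. The muscle identity of all 4 U133A arrays was checked on MYH13, which lay between 65562.6 and 85322.2, and on the muscle creatine kinase CKM, which lay between 130502.8 and 150823.4. On both array types the most alike pair of arrays crossed the groups: lateral replicate 1 and medial replicate 1 had a Spearman correlation over probe sets of 0.895 on U133A and 0.813 on U133B. Medial replicate 2 was the least alike, with correlations to the other 3 of 0.869 to 0.887 on U133A and 0.748 to 0.755 on U133B. The median intensity was higher on the medial arrays (815 and 852 against 788 and 802 on U133A, 963 and 999 against 909 and 958 on U133B).

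Over all expressed genes, no probe set separated the 2 muscles past the threshold of an adjusted p under 0.05. The share past the threshold was 0% of 11907 probe sets on U133A and 0% of 11836 on U133B in limma with Benjamini-Hochberg adjustment, where the smallest adjusted p was 0.173 and 0.991. An unadjusted p under 0.05 was reached by 333 probe sets (2.8%) on U133A and 406 (3.43%) on U133B. The median SE of a log2 difference was 0.35 on U133A and 0.53 on U133B, so differences of single genes were measured less closely on U133B. A second description needs no model: whether both arrays of one muscle lay above both arrays of the other, here called no overlap. On U133A, 15% of the probe sets did so with medial higher and 13.6% with lateral higher, and on U133B 15.2% and 16.8%, and every count of members below is to be read against these shares. All pairings of a medial with a lateral array were at least 2-fold apart in 0.277% (medial higher) and 0.302% (lateral higher) of the probe sets on U133A, and in 0.828% and 0.836% on U133B.

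Hemoglobin transcripts were higher in lateral rectus and gave the smallest p-values of the comparison. HBB encodes the beta chain of adult hemoglobin, carried by red cells. The first of its 3 probe sets read 8997.5 and 7476.4 in medial rectus and 26211.3 and 25717.2 in lateral rectus. The second read 8966.6 and 6275.1 against 28295.1 and 25505.6, and the third 12873.7 and 8909.5 against 32867.0 and 25642.8. In all 3 of these HBB probe sets both lateral arrays were at about the same level and clear of both medial arrays. Their differences were -1.66 ± 0.20, -1.84 ± 0.23 and -1.44 ± 0.24 (log2, SE), with limma adjusted p of 0.173, 0.173 and 0.469. For the first HBB probe set this is a ratio of means of 3.17, and 2.86 between the 2 closest arrays.

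The 8 probe sets with the smallest p on U133A were all globin probe sets, 3 of them HBB and the others annotated to several globin genes, which cannot be named singly. Of 18 globin probe sets on both array types, 13 passed the filter on low values, and 10 of those were higher in lateral rectus without overlap, beside 13.6% of all probe sets on U133A. Probe sets of near-identical globin genes bind the same transcripts, so these 10 are not 10 separate measurements. The groups overlapped in the minor globins that could be named. HBD, the delta chain, read 925.7 and 313.2 in medial and 908.3 and 1132.7 in lateral rectus. HBE1, the embryonic epsilon chain, read 2757.3 and 453.8 against 1371.5 and 1802.6. In bulk samples, fewer cells of a type and less RNA per cell cannot be told apart, and for a red cell gene the same holds for blood left in the tissue.

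The globin call changed with the filter on low values. With only the 5815 probe sets above the pooled 75th percentile, the unadjusted limma p of the first HBB probe set was 6.11e-06, against 2.61e-05 over 11907. With that filter 7 probe sets passed, all of them globin, with limma adjusted p of 0.0118 to 0.0179, 2 of them HBB. Over all alternatives the adjusted p of the first HBB probe set ran from 0.0118 to 0.999. Without medial replicate 1, 9 probe sets passed on U133A, of which 8 were globin (adjusted p 0.00922 to 0.0276). The other was UBB, a polyubiquitin gene, which read 136891.9 on medial replicate 2 and 20888.1 on medial replicate 1. The lateral arrays read 18847.6 and 30041.3 for UBB, so this call rests on 1 array. Without medial replicate 2, 1 probe set passed, of the kinase DYRK2 (-3.72, adjusted p 0.0288), which read 367.3 on medial replicate 1 and 3437.0 on medial replicate 2. The lateral arrays read 5628.7 and 4175.0 in that DYRK2 probe set, which was at -2.11 ± 0.85 with all arrays. The other measured DYRK2 probe sets overlapped, at 0.25 ± 0.33, -0.28 ± 0.28 and -0.10 ± 0.41.

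Other red cell genes were divided between the muscles. Of the red cell list on U133A, 12 of the 28 genes were measured above the filter, 11 of them beside HBB. With each gene at its brightest probe set, 4 of these 11 were higher and 7 lower in medial rectus, with a median of -0.12 beside 0.00 over all probe sets tested. After quantile normalization, 3 were higher and 8 lower. Groups did not overlap in 2 of the 11 with medial higher and 1 with lateral higher. The latter was SELENBP1, a selenium-binding protein that is abundant in red cells. AHSP, the chaperone of free alpha globin, went the other way, with 1136.3 and 2465.5 in medial and 1093.3 and 1025.4 in lateral rectus (0.66 ± 0.44). CA1, a carbonic anhydrase of red cells, overlapped (-0.60 ± 0.61), and the heme and iron genes BLVRB (-0.12 ± 0.29) and SLC25A37 (0.03 ± 0.26) were close to 0. The median of these 11 red cell genes was 0.12 without medial replicate 1 and 0.01 without lateral replicate 2.

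**Figure D1:**
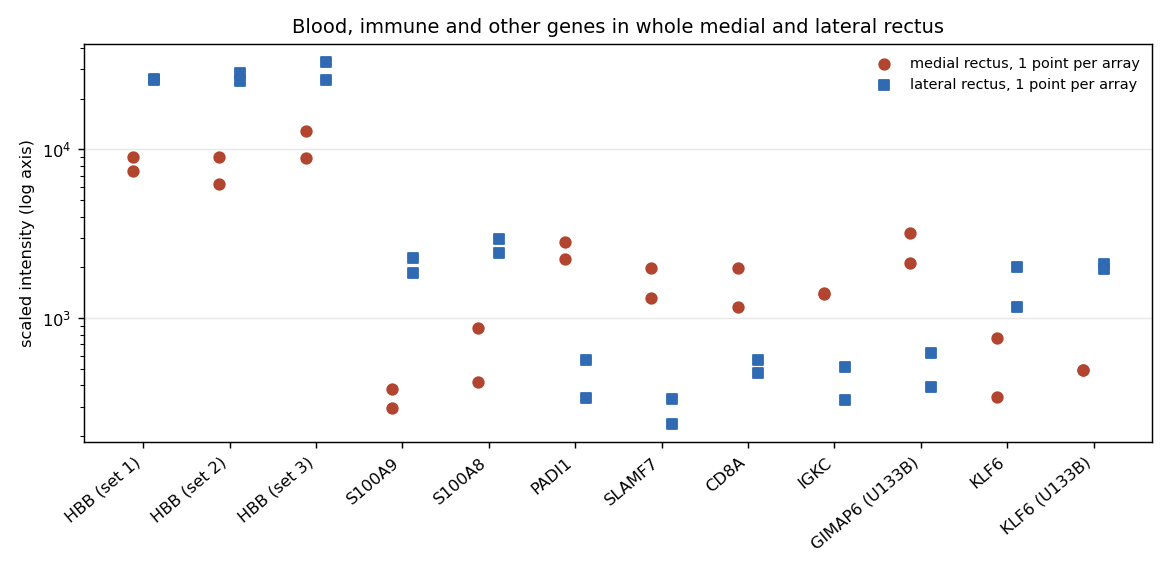
Scaled intensity (log axis) of 12 probe sets on each medial rectus array (circles) and each lateral rectus array (squares). Both lateral arrays lie above both medial arrays for HBB, S100A8, S100A9 and KLF6, and below them for PADI1, SLAMF7, CD8A, IGKC and GIMAP6. Array type is U133A unless named; heights of different probe sets are not comparable.

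S100A8 and S100A9, the 2 subunits of calprotectin that neutrophils and monocytes carry in bulk, were also higher in lateral rectus. S100A9 read 379.1 and 292.0 in medial and 2265.0 and 1853.8 in lateral rectus, so the closest arrays of the 2 muscles differed 4.89-fold. S100A8 read 870.1 and 418.1 against 2432.7 and 2953.9. The differences were -2.62 ± 0.51 for S100A9 and -2.15 ± 0.44 for S100A8, with limma adjusted p of 0.736 and 0.991. Both genes were low on every layer array, at 95.8 to 331.2 for S100A9 and 159.3 to 353.3 for S100A8. The third HBB probe set read 19835.0 to 28497.6 on the layer arrays, above both medial rectus arrays. The layer RNA was amplified, so the scales may differ. For all other genes named below, the limma adjusted p lay between 0.617 and 0.999, so none of those differences passed the test.

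Of the 30 neutrophil and monocyte genes, 11 were measured on U133A, of which 9 were other than the calprotectin genes. Among these 9, groups did not overlap in 3 with lateral higher and 0 with medial higher, beside 13.6% and 15% of all probe sets. The 3 were CLEC7A, MMP8 and MMP9. CLEC7A, the beta-glucan receptor dectin-1, read 548.1 and 458.6 in medial and 1260.7 and 1088.1 in lateral rectus (-1.22 ± 0.54). MMP9, a gelatinase stored in neutrophil granules, read 1659.6 and 843.3 against 1777.5 and 1882.4 (-0.63 ± 0.40). MMP8, the neutrophil collagenase, read 963.5 and 512.3 against 1265.6 and 1049.1 (-0.71 ± 0.51). The remaining members were on both sides of 0. S100A12, another calgranulin of the same cells, overlapped at 0.25 ± 0.39, as did the secreted lectin FCN1 at 0.47 ± 0.60 and the neutrophil Fc receptor FCGR3B at -0.18 ± 0.39. Without calprotectin, 5 of the 9 were higher in medial rectus, with a median of 0.13, and -0.17 without medial replicate 1 or -0.12 without lateral replicate 2. The summed intensity of the 9 overlapped, with 13424.3 and 10617.0 in medial and 12966.5 and 11834.0 in lateral rectus. With calprotectin the median of the 11 was -0.18, and it ran from -0.57 without medial replicate 1 to -0.01 without lateral replicate 1. In the wider S100 family, 6 of the 8 other measured members were higher in medial rectus, with a median of 0.14.

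Lymphocyte genes did not all lie on one side. Of 10 T and natural killer cell genes measured on U133A, 7 were higher in medial rectus, with a median of 0.49. Groups did not overlap in 5 with medial higher (CD2, CD8A, KLRD1, SLAMF7 and GIMAP5) and 1 with lateral higher (CCL5). SLAMF7, a surface receptor of natural killer and plasma cells, read 1318.7 and 1988.7 in medial and 235.8 and 332.9 in lateral rectus (2.53 ± 0.63). CD8A, a chain of the cytotoxic T cell coreceptor, read 1162.1 and 1977.6 against 472.2 and 562.5 (1.56 ± 0.51). Both medial arrays were above both lateral arrays in each gene, with medial replicate 2 the higher. CD3E, a chain of the T cell receptor complex that all T cells share, did not show this: it read 1072.7 and 1709.7 in medial and 2223.4 and 1393.4 in lateral rectus, overlapping at -0.38 ± 0.39. CD5, a T cell surface antigen outside the list, read 355.5 and 2016.8 in medial and 2685.4 and 1138.3 in lateral rectus, overlapping at -1.05 ± 0.78. On U133B, CD5 read 553.0 and 837.2 against 1058.6 and 3431.9 without overlap (-1.49 ± 0.77). Without medial replicate 1 the difference of CD5 on U133A was 0.21, and the median of the T and natural killer cell list was -0.04.

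On U133B, 2 genes of the same list were measured and neither overlapped. GIMAP6, a GTPase of lymphocytes, read 2111.5 and 3205.1 in medial and 389.3 and 618.5 in lateral rectus (2.41 ± 0.67). The GIMAP6 probe set on U133A stayed under the filter, at 75.2 and 263.6 in medial and 285.8 and 527.9 in lateral rectus. SLAMF7 on U133B read 1621.9 and 2041.8 against 1552.3 and 393.1 (1.22 ± 0.78), where lateral replicate 1 came within reach of the medial arrays. In these measured probe sets SLAMF7 was thus higher in medial rectus on both array types, by 2.53 on one and 1.22 on the other. A further SLAMF7 probe set of U133B stayed under the filter and had the higher mean in lateral rectus. It read 712.3 and 453.4 in medial and 1497.9 and 664.2 in lateral rectus, with overlap.

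Of 5 B and plasma cell genes measured on U133A, 3 were higher and 2 lower in medial rectus. Their median was 0.33, and it ran from -0.36 to 0.58 over the alternatives. Groups did not overlap in 2 with medial higher and 1 with lateral higher. Among them IGKC, the kappa light chain constant region, read 1393.8 and 1408.9 in medial and 329.8 and 514.1 in lateral rectus (1.77 ± 0.56). A second measured IGKC probe set overlapped (0.45 ± 0.58). MS4A1, the B cell antigen CD20, was at 0.33 ± 0.33 on U133A and at -1.18 ± 0.69 on U133B. There it was the 1 measured member of the list, with lateral rectus higher and no overlap. Of 5 mast cell genes measured, 4 were higher in medial rectus, with a median of 0.87. This mast cell median was 0.17 without lateral replicate 1, 0.11 without lateral replicate 2 and 0.29 without medial replicate 2. TPSB2, a mast cell tryptase, read 977.0 and 1456.0 against 721.7 and 585.2 (0.88 ± 0.49). It was the 1 member of that list whose groups did not overlap.

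The 14 macrophage genes measured on U133A were divided, 9 higher and 5 lower in medial rectus, with a median of 0.12. CYBB, a subunit of the phagocyte oxidase, read 1039.5 and 1697.6 against 400.6 and 842.3 on U133A (1.19 ± 0.57), and 0.07 ± 0.50 on U133B. CSF1R, the receptor for macrophage colony-stimulating factor, went the other way, with 1015.0 and 787.5 against 1148.6 and 2111.0 (-0.80 ± 0.44). Without lateral replicate 1 the macrophage median was -0.01. Of 11 class II antigen presentation genes on U133A, 9 were lower in medial rectus, by a median of -0.12. Interferon response genes had a median of 0.00 on U133A. On U133B, 5 of 6 interferon genes were lower, with a median of -0.23, which ran from -0.60 to 0.33 over the alternatives. The U133A interferon median was -0.37 without medial replicate 1 and 0.44 without medial replicate 2. The summed intensity of the interferon genes on U133A was 36606.7 and 19350.6 in medial and 34228.3 and 20625.1 in lateral rectus. It was thus higher on replicate 1 than on replicate 2 in both muscles. The immune lists together held members higher in each muscle, and none of their members passed the test.

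PADI1, a peptidylarginine deiminase of skin and other stratified epithelia, was higher in medial rectus on both array types. On U133A it read 2833.1 and 2250.5 in medial and 336.4 and 569.3 in lateral rectus (2.53 ± 0.45, limma adjusted p 0.617), a 5.77-fold ratio of means. On U133B a PADI1 probe set read 2109.5 and 2422.8 against 2066.0 and 1494.7 (0.36 ± 0.46), which is the same direction with the groups almost touching. PADI2, the deiminase of muscle and brain, overlapped at -0.33 on U133A.

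The surface epithelium list held 10 measured genes on U133A beside PADI1. Of these 10, 6 were higher in medial rectus, 3 of them without overlap, and 0 lay without overlap in the other direction. IVL encodes involucrin, a protein of the cornified envelope, and read 2626.6 and 1972.8 in medial and 487.2 and 1568.0 in lateral rectus (1.38 ± 0.54). SPRR1B, a small proline-rich protein of the same structure, read 1524.1 and 933.1 against 650.0 and 633.2 (0.89 ± 0.50). The remaining one was keratin KRT10 (0.63 ± 0.38). Other keratins went the other way or overlapped, KRT1 at -0.40 ± 0.38 and KRT8 at -0.52 ± 0.62. The median of the 10 was 0.19, and -0.08 without medial replicate 1 or -0.02 without lateral replicate 1. Their summed intensity was 17581.6 and 14381.6 in medial and 12185.4 and 14193.5 in lateral rectus, with medial replicate 2 and lateral replicate 2 nearly level.

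The lacrimal gland list, which stands for the tear gland on the outer side of the orbit, held 7 measured genes on U133A. Of these 7, 4 were higher and 3 lower in medial rectus. Groups did not overlap in 3 with medial higher and 2 with lateral higher. The examples without overlap given here, PIP and WFDC2, are both from the medial side, and the 2 from the lateral side are not shown. PIP, a protein secreted by lacrimal and other exocrine glands, read 1700.5 and 1476.9 in medial and 202.1 and 969.6 in lateral rectus (1.84 ± 0.74). WFDC2, a secreted protease inhibitor, read 1967.7 and 1903.4 against 975.0 and 1217.0 (0.83 ± 0.33). PIGR, the receptor that carries immunoglobulin A across gland epithelium, overlapped at -0.95 ± 0.92. The list median was 0.31, and -0.06 without lateral replicate 2.

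KLF6, a zinc finger transcription factor induced early by injury and stress, was higher in lateral rectus on both array types. It read 339.3 and 761.5 in medial and 2020.9 and 1172.6 in lateral rectus on U133A (-1.60 ± 0.58). On U133B it read 491.7 and 491.2 against 2085.3 and 1946.3 (-2.04 ± 0.69). The other 2 KLF6 probe sets of U133A stayed under the filter, at 95.5 to 312.9 on these 4 arrays.

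KLF6 belongs to the early response genes, and of 17 of those measured on U133A, 10 were higher in medial rectus, with a median of 0.17. ZFP36, which binds and destabilises cytokine messenger RNA, was lower in medial rectus like KLF6, with 685.7 and 792.8 against 1720.0 and 2039.4 (-1.34 ± 0.38). NR4A1, an orphan nuclear receptor induced by activity, was higher there, with 1898.7 and 3324.2 against 1064.1 and 1278.4 (1.11 ± 0.36). FOS partners and other early genes were closer together, JUN at -0.33 ± 0.23 and EGR1 at -0.29 ± 0.24. Without lateral replicate 1 the list median was -0.13, and without medial replicate 2 it was -0.14.

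Per gene symbol, the 2 array types had little in common. Of 1859 symbols measured on both, 960 (51.64%) had the same sign, and the Pearson correlation of the 2 differences across genes was 0.03 (Spearman 0.03). Genes are not independent replicates, and the probe sets of a gene on the 2 array types bind different parts of its transcript. Groups did not overlap on both array types in the same direction for 98 symbols, 50 with medial higher, and in opposite directions for 85. A difference of at least 2-fold on both was found for 6 symbols, 5 of them in the same direction (SLAMF7 and ERI2 higher in medial rectus, KLF6, CD5 and TMEM9B higher in lateral rectus). TMEM9B, a transmembrane protein, was at -1.62 ± 0.90 with overlap on U133A, where it moved to -0.09 without medial replicate 2, and at -1.61 ± 0.79 on U133B. The other symbol was CUL7, which went opposite ways. The 99 probe sets that both array types carry gave a similar picture, 55 with the same sign (Pearson 0.16), although among those without overlap on both, 10 shared the direction and 1 did not. Within U133A itself, the 2 probe sets of genes with exactly 2 measured had the same sign in 52.4% of 1376 genes, and on U133B in 50.4% of 1175.

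Among the symbols that shared a direction without overlap were several enzymes and signalling genes. ERI2, an exoribonuclease family member, read 1351.7 and 1281.5 in medial and 585.6 and 565.1 in lateral rectus on U133A, a difference of 1.19 ± 0.47, and 1.16 ± 0.61 on U133B. The palmitoyltransferase ZDHHC13 was at 1.13 ± 0.53 and 0.83 ± 0.50. The tyrosine kinase ABL2 was at 0.67 ± 0.30 and 1.23 ± 0.52, and the cell cycle kinase CDK1 at 0.82 ± 0.63 and 1.82 ± 0.78. In the direction of lateral rectus were the cyclophilin PPID (-0.67 ± 0.28 and -0.66 ± 0.75), the Hippo pathway kinase LATS1 (-0.62 ± 0.34 and -0.90 ± 0.63) and EIF4EBP2 (-0.61 ± 0.41 and -0.54 ± 0.27), a repressor of cap-dependent translation. LUM, the proteoglycan lumican, went opposite ways, at 1.58 ± 0.52 on U133A and -0.45 ± 0.58 on U133B.

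**Figure D2:**
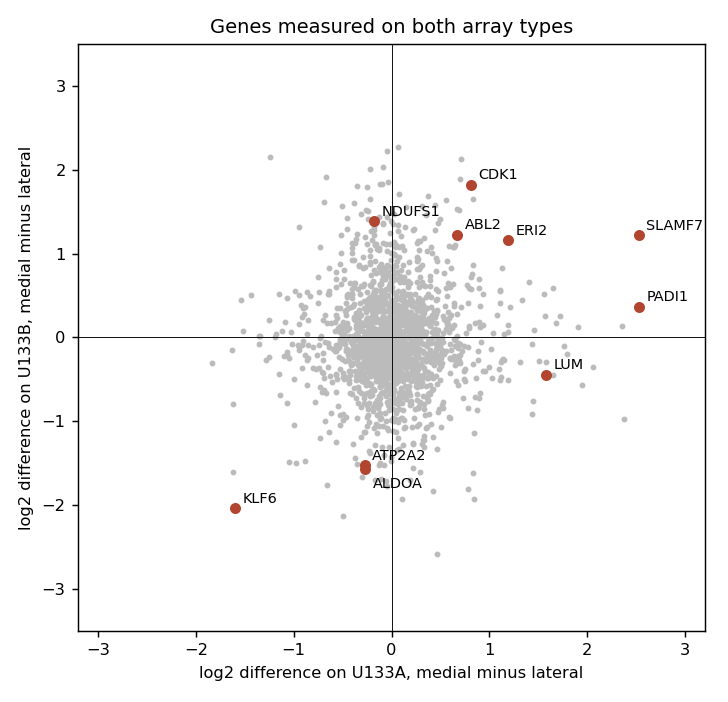
Log2 difference, medial minus lateral rectus, on U133A (horizontal axis) against U133B (vertical axis) for the 1859 gene symbols measured on both, 1 point per symbol. The cloud has no slope (Pearson 0.03), KLF6 lies at the lower left, and SLAMF7, ERI2, ABL2 and CDK1 lie at the upper right.

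The genes with the widest gap between their closest arrays often had other probe sets that showed no such gap. NENF, a secreted neurotrophic factor, read 1669.4 and 2631.7 in medial and 255.5 and 283.8 in lateral rectus in 1 probe set (2.96 ± 0.56), a 5.88-fold gap between the closest arrays. Its brightest probe set read 9953.7 and 8735.3 against 9178.3 and 9212.5 (0.02 ± 0.20), and another measured one was at -0.57 ± 0.33. CD47, the surface signal that restrains phagocytes, read 348.0 and 396.5 against 2089.6 and 2409.9 in 1 U133B probe set (-2.59 ± 0.74), while 3 CD47 probe sets on U133A lay between -0.19 and -0.05. The other 2 measured CD47 probe sets of U133B did not overlap and went opposite ways: 1 read 2738.5 and 2543.3 against 4144.3 and 3937.2 (-0.61 ± 0.34), and the other was at 0.25 ± 0.40. NPR1, the receptor for atrial natriuretic peptide, read 401.0 and 508.9 in medial and 1613.9 and 1767.7 in lateral rectus (-1.90 ± 0.48). ADGRL1, an adhesion receptor, read 291.3 and 433.7 against 1921.9 and 1495.6 (-2.25 ± 0.55). On U133B, the ubiquitin ligase component CUL7 read 3111.8 and 2774.7 in medial and 643.4 and 674.4 in lateral rectus (2.16 ± 0.56). The CUL7 probe set of U133A went the other way without overlap, with 656.6 and 707.8 in medial and 2008.0 and 1289.6 in lateral rectus (-1.24 ± 0.43). Also on U133B, the deacetylase HDAC8 read 1907.3 and 1782.0 against 375.3 and 422.6 (2.21 ± 0.76). LNX1, a ubiquitin ligase, went the other way, with 431.2 and 475.9 against 2276.6 and 2939.9 (-2.51 ± 0.66).

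A few genes had 3 or more measured probe sets that all went one way. PLAUR, the urokinase receptor, was higher in medial rectus without overlap in all 3 of its probe sets (0.61 ± 0.31, 1.25 ± 0.66 and 0.98 ± 0.61). CAPN3, the muscle calpain, was lower in medial rectus in its 3 probe sets (-0.49 ± 0.26, -0.89 ± 0.61 and -0.87 ± 0.35), of which 1 overlapped.

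Muscle and metabolic genes are among the brightest on the arrays, and bright probe sets as a class were lower in medial rectus. Probe sets were ranked by mean intensity and cut into 10 equal classes. In the brightest class of U133A, 66.3% of the probe sets were lower in medial rectus, with a median of -0.06, and on U133B 71.9%, with a median of -0.18, against 49.5% and 52% over all probe sets. After quantile normalization, which gives every array the same distribution, these shares were 46.5% and 54.3%. The list counts of the muscle, metabolic and supporting tissue genes are therefore given under both scalings, and the part of the scaling in any single gene was not tested.

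**Figure D3:**
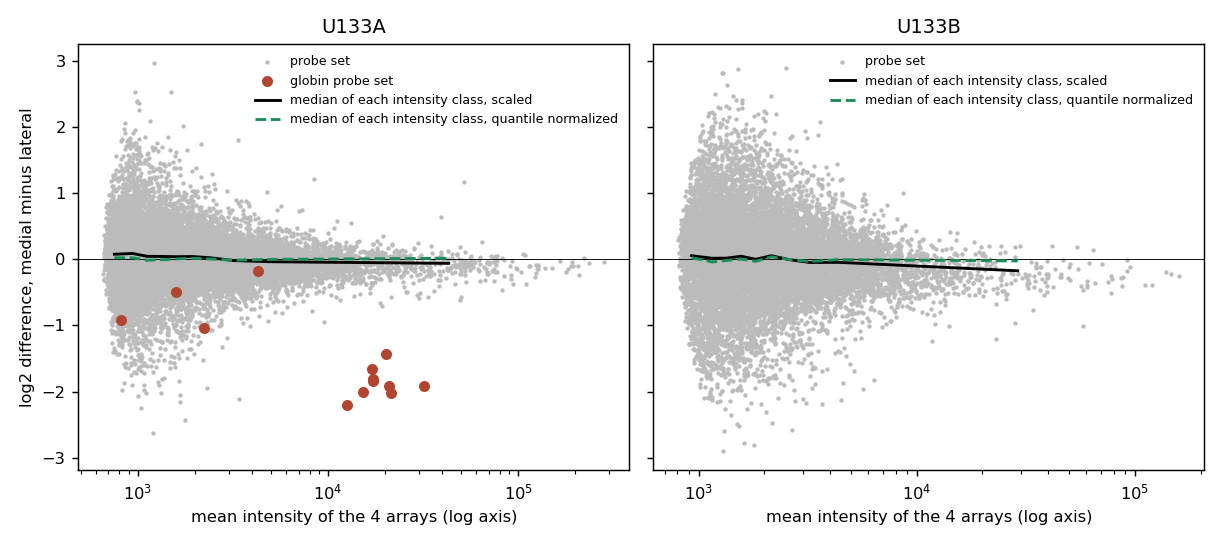
Log2 difference, medial minus lateral rectus, against mean intensity of the 4 arrays (log axis) for each probe set measured on U133A (left) and U133B (right), with globin probe sets in red. The solid line joins the medians of the 10 intensity classes and falls below 0 at the bright end (-0.06 on U133A, -0.18 on U133B); the dashed line, after quantile normalization, stays near 0.

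Of 14 fast fibre genes measured on U133A, 13 were lower in medial rectus, with a median of -0.20, and 10 were lower after quantile normalization, with a median of -0.08. MYH4, a fast myosin heavy chain, read 58193.3 and 81279.2 in medial and 96776.0 and 92797.1 in lateral rectus (-0.46 ± 0.22). MYH13 overlapped at -0.09 ± 0.21 (0.02 after quantile normalization), and CKM stood at -0.14 ± 0.19. Of 13 slow fibre genes, 8 were lower (median -0.05), and 5 after quantile normalization (median 0.02), with the slow myosin MYH7 at 0.01 ± 0.34. ATP2A2, the slow calcium pump, did not agree among its probe sets, at 0.64 ± 0.33 and -0.27 ± 0.22 on U133A and -1.53 ± 0.46 on U133B. MYOD1, the master regulator of the muscle lineage, read 1940.7 and 2372.8 in medial and 3406.2 and 3494.9 in lateral rectus (-0.69 ± 0.26). SCN4A, the sodium channel of the muscle membrane, read 4779.1 and 2137.8 against 7355.1 and 5027.6 (-0.93 ± 0.39).

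Mitochondrial lists shifted with the scaling as well. Of 58 oxidative phosphorylation genes on U133A, 42 were lower in medial rectus (median -0.10), and 35 after quantile normalization (median -0.03). Some members differed by more. The complex I subunit NDUFC1 read 1319.3 and 1081.5 in medial and 3381.5 and 2060.0 in lateral rectus (-1.14 ± 0.35). UQCRB of complex III was at -0.86 ± 0.24 in one probe set, -0.71 ± 0.28 in the brightest and 0.08 ± 0.30 in another. NDUFS1, a core subunit of complex I, was at -0.18 ± 0.23 on U133A and 1.39 ± 0.39 on U133B. OGDH, a dehydrogenase of the citric acid cycle, read 3251.0 and 2451.8 against 4361.0 and 4390.0 (-0.63 ± 0.26). Of 17 citric acid cycle genes, 14 were lower, and 11 after quantile normalization. Of 23 glycolysis and glycogen genes 18 were lower, and 12 after quantile normalization.

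Cytosolic ribosomal protein genes were lower in medial rectus with the authors' scaling, and by less after quantile normalization. On U133A, 38 of 50 were lower in medial rectus (median -0.11), and 27 after quantile normalization (median -0.01). On U133B, 21 of 25 were lower (median -0.38), and 15 after quantile normalization (median -0.13). RPL8 read 21730.9 and 20797.7 against 29822.0 and 30218.7 (-0.50 ± 0.18). RPL11, measured by the same probe set on both array types, was at -0.35 ± 0.30 with overlap on U133A and -0.96 ± 0.30 on U133B.

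Of 6 adipocyte genes measured on U133A, 5 were lower in medial rectus, and 4 after quantile normalization, with a median of -0.41 under both scalings. Groups did not overlap in 4 with lateral higher, beside 13.6% of all probe sets, which were LPL, CIDEC, LIPE and CFD. CIDEC, which coats lipid droplets, read 1796.1 and 1175.7 in medial and 2031.3 and 2273.3 in lateral rectus (-0.56 ± 0.33). CFD, the adipocyte complement factor adipsin, read 819.8 and 405.1 against 993.1 and 1094.1 (-0.85 ± 0.58). FABP4, the fatty acid carrier of fat cells, overlapped on U133A (0.05 ± 0.30) and was at 0.91 on U133B. Of 3 adipocyte genes measured on U133B, 2 were higher and 1 lower in medial rectus, and 0 lay without overlap. After quantile normalization 1 was higher and 2 lower. Of 9 pericyte and smooth muscle genes 8 were lower, and 7 after quantile normalization, with a median of -0.25 under both scalings, and 0.08 without medial replicate 2.

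Of 29 fibroblast and matrix genes, 17 were lower in medial rectus (median -0.04), and 14 after quantile normalization (median 0.02). COL5A2, a chain of the fibril-organising collagen V, was lower in medial rectus in both its probe sets (-0.63 ± 0.25 and -0.64 ± 0.30). The brighter COL5A2 probe set read 6887.9 and 4791.1 against 8333.6 and 9519.8. MFAP4, a microfibril protein of elastic fibres, read 1024.0 and 516.5 against 1803.5 and 1405.2 (-1.13 ± 0.47). The main collagens were close to 0, COL1A2 at -0.05 ± 0.21 (0.02 after quantile normalization) and COL3A1 at -0.08 ± 0.19. Among clock genes, BMAL1, the activator of the circadian loop, read 600.7 and 558.0 in medial and 1359.7 and 1251.9 in lateral rectus (-1.17 ± 0.47), while its partner CLOCK was at -0.03 ± 0.31.

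Genes of calcium release and storage were lower in medial rectus on U133B, where all 6 measured were below 0 (median -0.41, and 5 of 6 after quantile normalization). SRL, a calcium-binding protein of the sarcoplasmic reticulum, read 25805.7 and 15801.8 in medial and 34250.5 and 27254.2 in lateral rectus (-0.60 ± 0.32). On U133A, 8 of 13 were lower under both scalings (median -0.18, and -0.09 after quantile normalization), with the release channel RYR1 at -0.18 ± 0.19 and the pump inhibitor sarcolipin, SLN, at 0.11 ± 0.29. TBX1, a transcription factor of head muscle formation, read 4958.9 and 2543.0 on U133B in medial and 5513.9 and 7225.8 in lateral rectus (-0.83 ± 0.38). At the neuromuscular junction, 5 of 10 measured genes were higher and 5 lower on U133A (median 0.00), and 4 were higher and 6 lower after quantile normalization (median -0.05). The acetylcholine receptor subunit CHRNB1 stood at -0.41 ± 0.24 and the subunit CHRNA1 at 0.14 ± 0.24.

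Vessel and hypoxia genes were divided between the muscles, and more nerve genes were lower than higher in medial rectus with the authors' scaling. Of 13 endothelial genes on U133A, 5 were higher and 8 lower in medial rectus under both scalings, with a median of -0.03. Groups did not overlap in 2 with medial higher and 2 with lateral higher. The von Willebrand factor VWF stood at -0.14 ± 0.20. PLVAP, a protein of fenestrated capillaries, read 1693.1 and 1092.6 in medial and 339.5 and 960.1 in lateral rectus (1.25 ± 0.62). Of 6 Schwann cell and nerve genes on U133A, 2 were higher and 4 lower (median -0.19). After quantile normalization 2 were higher and 5 lower. On U133B, 0 were higher and 4 lower, and 2 were higher and 2 lower after quantile normalization. Groups did not overlap on U133A in 2 with medial higher and 1 with lateral higher. PRX, periaxin of myelinating Schwann cells, read 2655.7 and 3137.8 against 2150.4 and 1769.2 (0.57 ± 0.28), while the myelin basic protein MBP was at -0.30 ± 0.22. Of 11 hypoxia genes, 6 were higher (median 0.02), and 7 after quantile normalization (median 0.08), with the angiogenic factor VEGFA at 0.36 ± 0.21 and the glucose transporter SLC2A1 at -0.26 ± 0.20. Of 15 atrophy and proteolysis genes, 11 were lower in medial rectus under both scalings (median -0.20, and -0.15 after quantile normalization), among them the transcription factor FOXO3 (-0.40 ± 0.24).

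**Figure D4:**
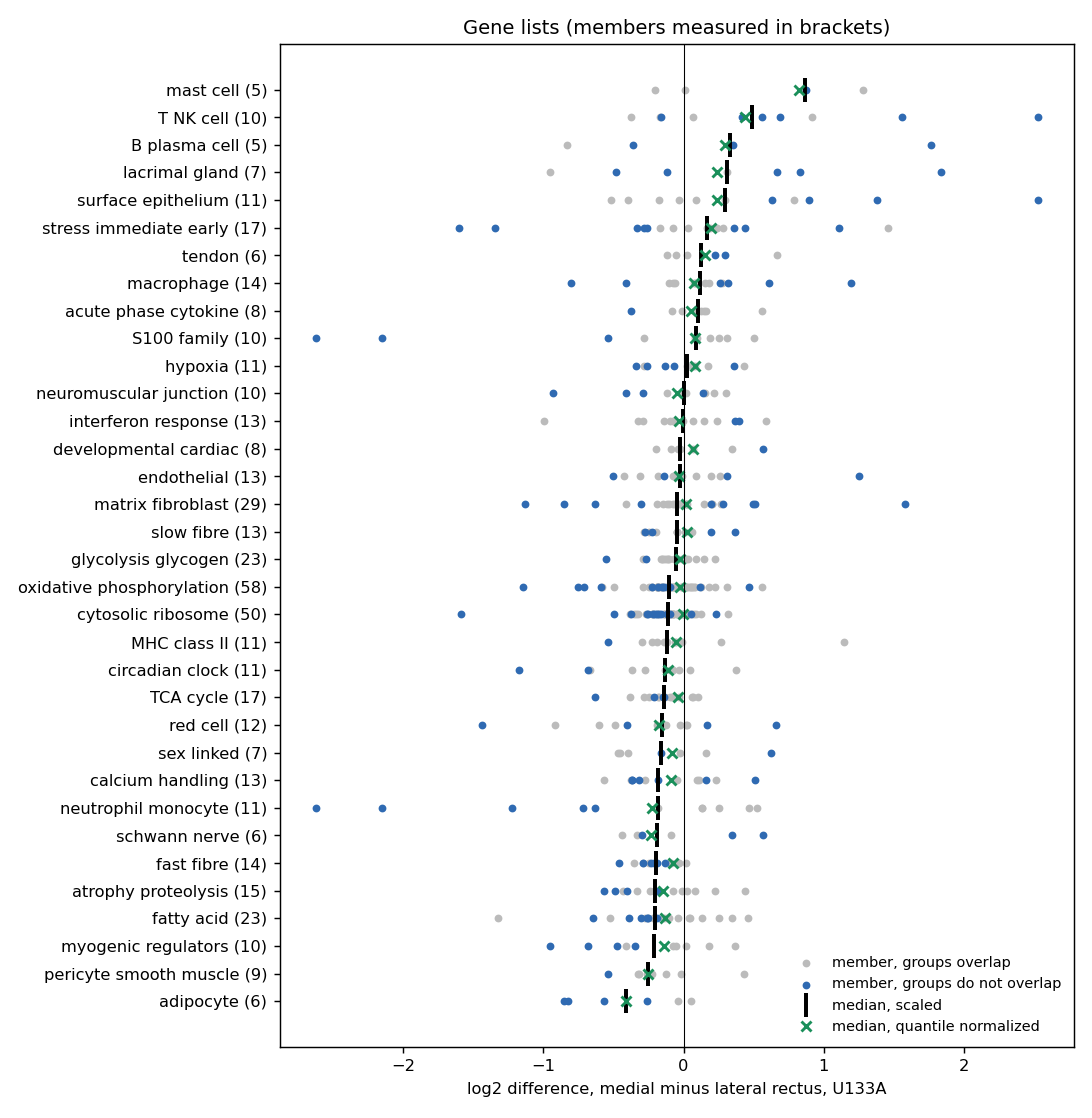
Log2 difference, medial minus lateral rectus, on U133A for the measured members of each gene list with 5 or more, 1 point per gene (blue where the groups do not overlap). Bars mark the list median with the authors' scaling and crosses the median after quantile normalization; T and natural killer cell genes have a median of 0.49, and fast fibre genes move from -0.20 to -0.08.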

How the data were processed

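The authors deposited linear intensities, with 1 value for each probe set on each array. From the values, each array had been scaled to a common mean: after trimming 2% at either end it lay between 1500.2 and 1500.7. Per the labels, whole muscle RNA followed the standard protocol on human U133 arrays; the summary software was not given in the sources used here. U133A and U133B were processed separately. Each array was rescaled to a common 2% trimmed mean, values under the pooled 20th percentile (146.487 and 218.465) were set to that percentile, and the values were converted to log2. Probe sets were kept when their mean log2 over the 4 rectus arrays reached that of the pooled median (653.942 and 802.702). Control probe sets (68 per array type) were excluded.

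Medial minus lateral was fitted with limma 3.58.1 in R 4.3.3 (variances with an intensity trend), two-sided, with Benjamini-Hochberg adjustment over the kept probe sets; an exact permutation test of 2 against 2 arrays cannot go below 1 in 3. The steps were tested on simulated data with a spread drawn from the fit. There the test called 3.8% of 2-fold and 41.0% of 4-fold changes on U133A, and 0.1% and 12.0% on U133B. The simulated data also held 8-fold and 16-fold changes, and the adjustment is less strict where more probe sets are called. These shares may therefore be too high for a table with 0 calls. A count of 0 past the threshold does not show that differences of such size are absent. Other settings were tried (closing section). Gene symbols came from the platform annotation. On U133A, 19071 of 22283 probe sets had 1 symbol, 1043 several and 2169 none; on U133B, 15432, 554 and 6659 of 22645. Only probe sets with 1 symbol were named.

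Members, lists and tests were chosen with earlier results of these data known. The text names the 4 marker genes HBB, S100A8, S100A9 and PADI1, genes without overlap in the same direction on both array types, genes with 3 or more probe sets going one way, genes with the widest gap between their closest arrays, and up to 4 members of a list with the smallest p. Other list members were named after their values were seen, as were UBB, DYRK2, LUM, CD5, TMEM9B and further probe sets of a named gene. In list counts a gene stands by its brightest kept probe set. The array numbers come from the titles where these give one, and otherwise from the order of deposit.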

Additional observations from a re-analysis of the deposited data

How the results depend on the processing

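Results were recomputed with quantile-normalized arrays, with other floors (5th and 40th percentile), with the low-value filter removed or moved to the 75th percentile, with untrended variances, with weighted arrays, with the layer arrays in the same fit, with a gene's probe sets averaged, and without each array. The number of probe sets past the threshold on U133A was 0 except for 7 with the 75th percentile filter and 0 to 9 when 1 array was left out, where the lone array is assumed to vary like the others. On U133B it was 0 under every alternative. Probe sets 2-fold apart in all pairings numbered 69 on U133A and 197 on U133B. They became 10 and 19 with the 75th percentile filter and 382 and 703 with no filter. As a share of the probe sets tested this is 0.579% on U133A and 1.66% on U133B, 0.172% and 0.338% with the stricter filter, and 1.72% and 3.11% without one. With the 40th percentile floor there were 107 on U133A. The cause of these moves was not tested. With 1 array left out there were 332 to 491 and 741 to 1230, since fewer pairings must agree. The share of symbols with the same sign on both array types stayed between 49.59% and 53.32%. Of 134 gene differences followed through these alternatives, 112 kept their sign throughout, which for groups without overlap leaving out an array cannot turn. The others had overlapping groups and turned when 1 array was left out. Their lowest and highest values then were, for blood and immune genes, -1.61 and 0.41 for CA1, -0.29 and 0.041 for BLVRB, -0.0201 and 0.0722 for SLC25A37, -1.79 and 0.81 for HBE1, -0.12 and 1.06 for FCN1, -0.57 and 0.21 for FCGR3B, -2.30 and 0.21 for CD5 on U133A, and -0.42 and 0.0426, -0.34 and 0.11, and -0.17 and 0.0773 for the 3 CD47 probe sets of U133A. For muscle genes they were -0.25 and 0.0743 for MYH13, -0.47 and 0.50 for MYH7, -0.26 and 0.48 for SLN, -0.47 and 0.12 for NDUFS1 on U133A, and -1.79 and 0.0148 for 1 CAPN3 probe set. For the remaining genes they were -0.82 and 0.12 for RPL11 on U133A, -2.68 and 0.78 for PIGR, and -0.32 and 0.42 for FABP4 on U133A. They were -0.25 and 0.16 for COL1A2, -0.16 and 0.0077 for COL3A1, and -0.15 and 0.082 for CLOCK. For the brightest NENF probe set they were -0.0741 and 0.11. Quantile normalization turned MYH13 to 0.0241 and COL1A2 to 0.0189. Of 44 list medians, only 15 kept their sign in every alternative, among them fast fibre, citric acid cycle, adipocyte and ribosomal protein genes on U133A. No paired analysis was possible from the titles alone, because medial and lateral arrays of an array type share at most 1 replicate number. On U133B, taking the unnumbered medial array as replicate 2 would complete the pairs, but that fit was not run. If arrays of the same number share an animal, the SE and p-values given do not take it into account. The precision of all values is limited by having 2 arrays in a group.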
